A study of Mus musculus with 4 samples.

Results

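Glycolysis and glycogen metabolism genes were followed in differentiating mouse myoblasts with and without myostatin (GDF8). The set held 38 genes, named by a list of enzymes and regulators, and a probe belonged to it if the array's own gene name was a listed gene or another symbol of the same gene. They had 64 probes of 41174 on the array, and 35 of the 38 genes passed the filter on dim probes among 17444 features tested. Pyruvate kinase is called Pkm2 in the files and Pkm here. The files also exchange the names of the phosphoglucomutases Pgm1 and Pgm2, which carry their current symbols here.

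Glycolysis splits glucose into pyruvate, and in working muscle much of the pyruvate leaves as lactate. Muscle stores glucose as glycogen, builds it with glycogen synthase, and releases it with a phosphorylase that phosphorylase kinase switches on and a glycogen-bound protein phosphatase switches off. Several steps have a muscle isoform that replaces a widely expressed isoform as myoblasts fuse and mature into fibres. GDF8, a ligand of the TGF-beta family, is known for restraining muscle growth.

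C2C12 is an established line of mouse myoblasts that forms myotubes in low serum. After growth in fetal bovine serum they were kept for 6 days in differentiation medium with horse serum, given either as 2% or as 10% in different fields of the labels. The RNA in 1 channel of each array came from cells that received 20 nM recombinant mouse GDF8 every 24 h during those 6 days, and the other from cells that received none. Each of the 4 two-colour arrays is labelled as a biological replicate, and GDF8 RNA was in Cy5 on replicates 2 and 3 and in Cy3 on replicates 1 and 4. The labels do not say how cultures were kept apart, so p-values measure the spread between these arrays, which may be technical, and all arrays lay on 1 slide. In whole cultures, fewer cells of a type and less RNA per cell cannot be told apart.

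Each array held 43379 spots that were not controls, of which between 63.3% and 78.8% were well above background in a channel. The cultures carried their defining muscle markers brightly: all 11 listed muscle genes were tested, and for 8 of them, among them Myog, Des and Acta1, the untreated RNA saturated the spot on all 4 arrays. Marker lists of other cell types had 0 genes past the threshold, beside 2.38% lower and 0.923% higher of all features. Tested were 3 of 7 adipocyte, 2 of 4 endothelial, 0 of 5 liver, 2 of 5 leukocyte and 2 of 5 neural genes. Alb, Apoa1, Ttr, Lep, Pecam1, Ptprc, Adgre1, Snap25 and Syp were above background on no array. The tested genes of these lists were well above background on all 4 arrays, some of them brightly. Mean log2 signals in untreated cells were 14.3 for Pparg, 13.3 for Map2, 11.8 for Cebpa, 10.1 for Mbp and 9.2 for Fabp4. Those of Cd68, Kdr, Csf1r and Tek were between 8.0 and 9.1.

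Gene values are given as the log2 ratio of GDF8 to untreated RNA within an array, and ± is the standard error from limma over 4 arrays unless another error is named. A gene was called when limma's adjusted p was under 0.05 over all 17444 features. After GDF8, 3 of the 35 tested genes were lower, beside 2.38% of all features, and 0 were higher, beside 0.923%. All 3 are muscle forms: Pgam2, the muscle phosphoglycerate mutase; Pygm, the muscle glycogen phosphorylase; and Ppp1r3a, the subunit that ties protein phosphatase to glycogen in muscle. The median over the 35 genes was 0.02, and over all features 0.01. Without replicate 2, limma called 0 of the 17444 features (1685 had an unadjusted p under 0.05, and the smallest adjusted p was 0.055). Without replicate 3 or replicate 4, the 416 lower and 161 higher features became 203 and 42 or 190 and 50, and the 3 genes stayed called. The methods' t-test on channel values called them at an unadjusted p under 0.05 with a fold over 1.6, and called 0 of the set after Benjamini-Hochberg adjustment.

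**Figure D1:**
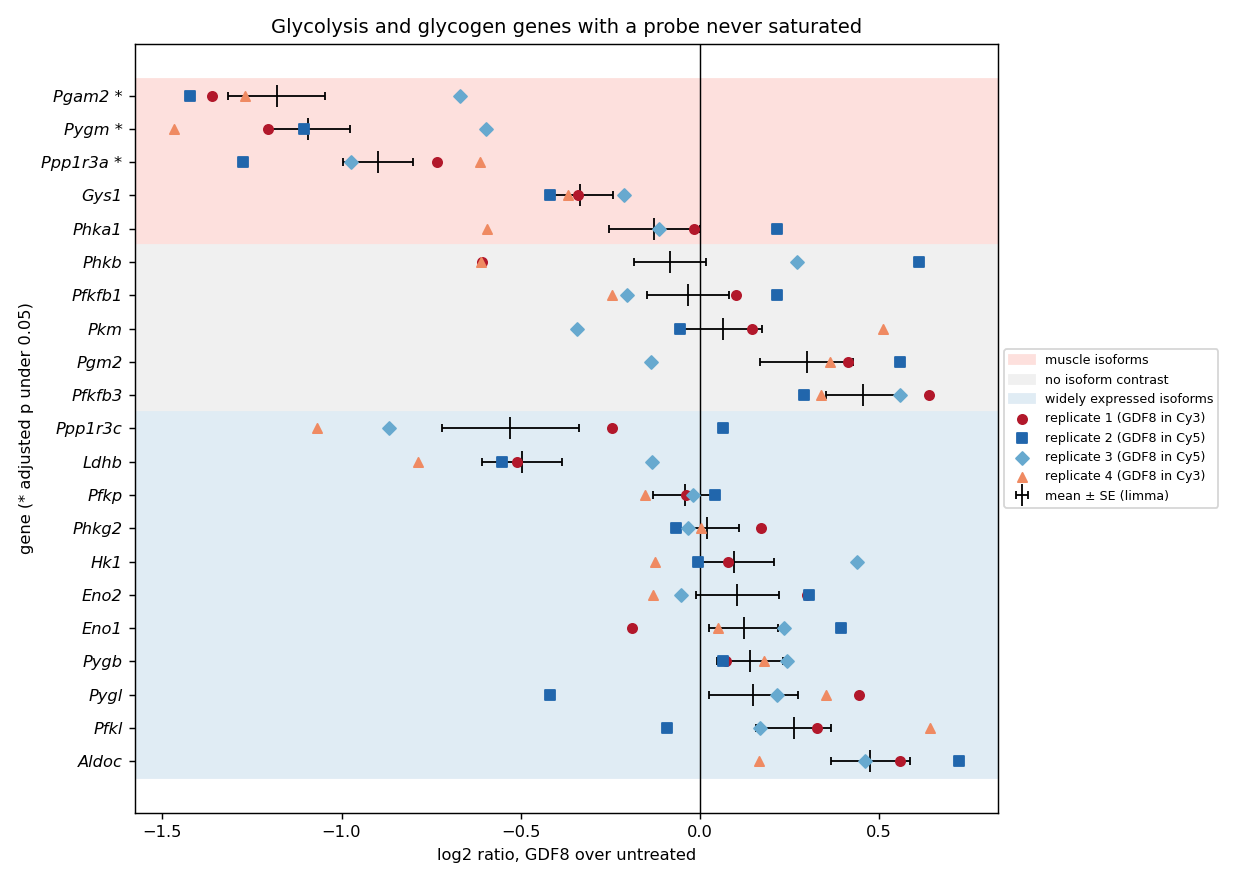
Log2 ratio of GDF8 over untreated RNA (x axis) for the 21 glycolysis and glycogen genes whose probe was never saturated (y axis). Each of the 4 arrays has 1 marker, and a black tick and bar give limma's mean ± SE. Background shades group muscle isoforms, genes without an isoform contrast and isoforms classed as widely expressed, which are all other partners. Pgam2, Pygm and Ppp1r3a lie between -1.47 and -0.60 on every array, and most other genes have markers on both sides of 0.

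Signal limits decided which genes could be read. A probe of 21 genes was never saturated in any channel, 3 genes (Gbe1, Ugp2 and Pgm1) were saturated on some arrays, and for 11 the untreated RNA saturated the spot on every array. These 11 were Hk2, Gpi1, Pfkm, Aldoa, Tpi1, Gapdh, Pgk1, Pgam1, Eno3, Ldha and Gyg, of which Gpi1, Pgam1 and Tpi1 were saturated in all 8 channels. A spot saturated in both channels gave nearly the same ratio whatever its gene: the medians over all such probes were 0.23 on replicate 1 (2101 probes), -0.31 on replicate 2 (1584), -0.26 on replicate 3 (1863) and 0.81 on replicate 4 (267). The sign of these medians followed the dye, above 0 where GDF8 was in Cy3 and below 0 where it was in Cy5. On replicates 1 to 4, 12, 11, 11 and 3 of the listed genes lay within 0.01 of that value.

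**Figure D2:**
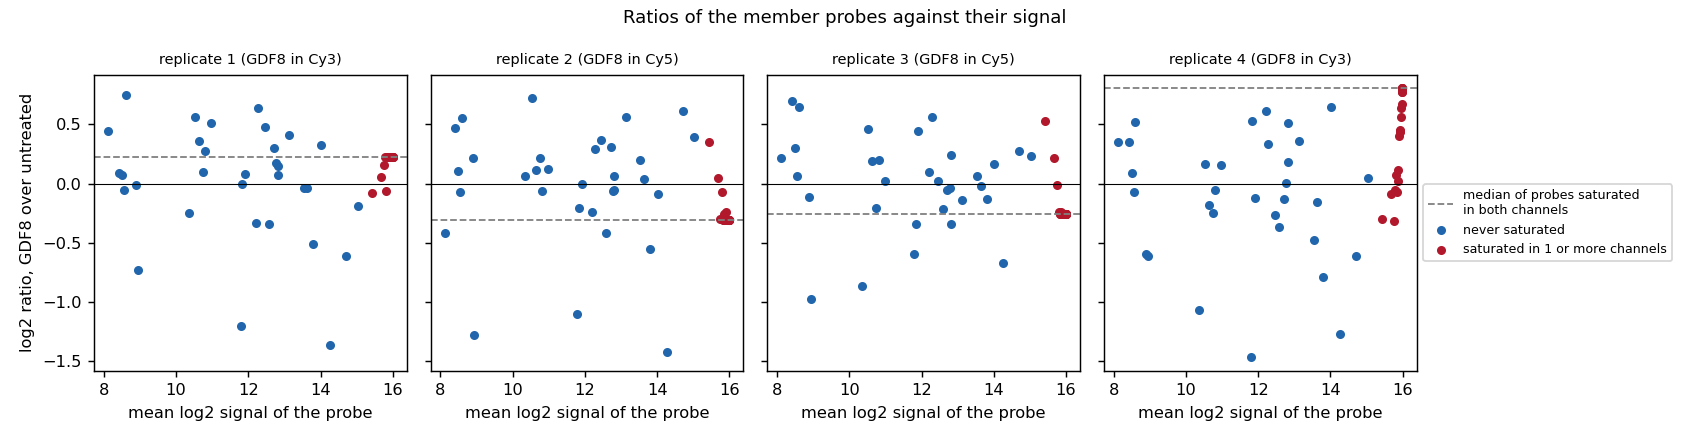
Log2 ratio of GDF8 over untreated RNA (y axis) against the mean log2 signal of the probe over arrays (x axis) for the probes of the set that passed the filter, 1 panel for each array; red points were saturated in at least 1 channel, blue points never, and the dashed line is the median ratio of all probes saturated in both channels. On replicates 1 to 3 most red points sit on the dashed line, at 0.23, -0.31 and -0.26.

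Gapdh, the dehydrogenase often used as a reference, shows what such a gene looks like. Its ratios were 0.23, -0.31, -0.26 and 0.67 on replicates 1 to 4, so that the first 3 equalled the medians of saturated probes. Pfkm, the muscle phosphofructokinase, had its GDF8 channel saturated on 2 arrays as well, and Gyg, the glycogenin that primes glycogen, on 3. Pfkm was at -0.07, -0.31, -0.26 and 0.07, and Gyg at 0.22, -0.31, -0.26 and 0.02, so that on replicates 2 and 3 both equalled the medians of saturated probes. Since both RNAs were saturated on some or all arrays for each of the 11 genes, no fold and no bound is given for them. The statements on the set that follow therefore cover the 21 genes with a probe never saturated, and any other value of the set is marked as saturated. Counts and medians of the marker lists and neighbouring lists further below also hold saturated genes. On all 4 arrays 5 of the 21 genes were negative and 3 positive, beside 1468 and 1365 of the 15100 features with such a probe. Among these 21 genes 3 were called lower, beside 2.67% of those features, and 0 were called higher, beside 1.05%. Without replicate 2 none was called (adjusted p = 0.068 for Pgam2, 0.080 for Pygm and 0.091 for Ppp1r3a).

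Pgam2 converts phosphoglycerates in the lower part of glycolysis and is the mutase of mature muscle. Its normalised log2 signal in untreated cells was 14.69, 15.09, 14.43 and 15.23 on replicates 1 to 4, and after GDF8 13.33, 13.66, 13.76 and 13.96. Every GDF8 value lay below every untreated value. The ratios were -1.36, -1.42, -0.67 and -1.27, with replicate 3 nearest to 0. Pgam2 fell by 1.18 ± 0.14 on the log2 scale, which is 2.27-fold lower (95% interval 1.81 to 2.84, limma adjusted p = 0.013). Without replicate 2 the ratio was -0.99 (adjusted p = 0.068).

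Pygm releases glucose phosphate from glycogen and is the phosphorylase of skeletal muscle. Its untreated signal was 12.44, 12.20, 11.95 and 12.77 on replicates 1 to 4, and the signal after GDF8 was 11.23, 11.10, 11.36 and 11.30. The groups did not overlap, and the GDF8 values were closer to each other than the untreated values. The ratios were -1.21, -1.10, -0.60 and -1.47. Pygm fell by 1.09 ± 0.12, or 2.13-fold (95% interval 1.76 to 2.59, limma adjusted p = 0.011). Without replicate 2 it was -0.97 (adjusted p = 0.080).

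Ppp1r3a had a dimmer probe, at 9.14, 9.57, 9.44 and 9.42 in untreated cells and 8.40, 8.30, 8.47 and 8.81 after GDF8. These values did not overlap either. In genes picked by their adjusted p, such gaps are no further support. The share of all features without overlap is not given here. The ratios were -0.73, -1.28, -0.97 and -0.61, here with replicate 2 the most negative and replicate 4 nearest to 0. Ppp1r3a fell by 0.90 ± 0.10, or 1.86-fold (95% interval 1.58 to 2.19, limma adjusted p = 0.011). Its other probes were not above background on all arrays of either RNA, with mean ratios of -0.39 and 0.03. Without replicate 2 the ratio was -0.82 (adjusted p = 0.091).

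**Figure D3:**
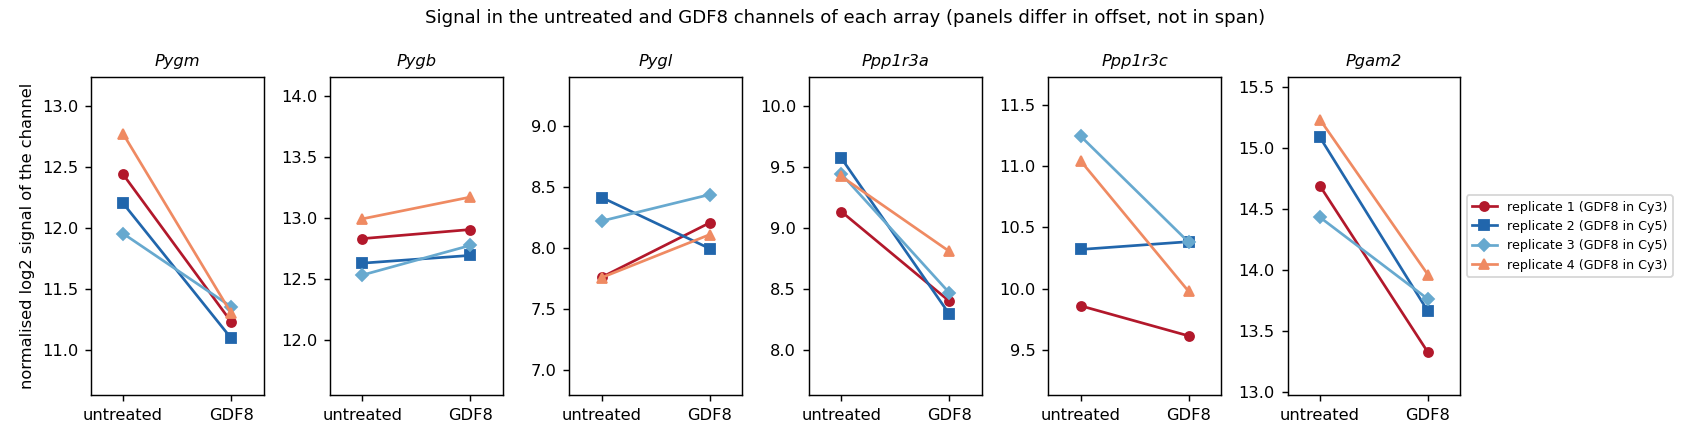
Normalised log2 signal of the untreated and the GDF8 channel (x axis), joined by a line for each of the 4 arrays, for Pygm with the other phosphorylases Pygb and Pygl, for Ppp1r3a with Ppp1r3c, and for Pgam2; the y axes have the same span and different offsets. All 4 lines fall for Pygm, Ppp1r3a and Pgam2, all 4 rise slightly for Pygb, and for Pygl and Ppp1r3c 1 array runs against the other 3.

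The promoters of the 3 genes that fell are shown with that of Pygb, a partner isoform of Pygm. Muscle-type motifs can thus be seen beside the values above. The other partners, Pygl, Pgam1 and Ppp1r3c, were planned too but are not shown. Pygb alone therefore does not stand for the partners as a group. Each is 300 bases from RefSeq on GRCm38.p6, from 250 before to 50 after the start of transcription, 5′ to 3′ on the gene's strand. Capitals mark CAGCTG, an E-box form known to be bound by myogenic factors of the MyoD family, and TATTTNTA or its reverse complement TANAAATA, the core of sites known for MEF2 factors. Pygm lies at chr19:6384158-6384457 on the + strand, Pgam2 at chr11:5803747-5804046 on the - strand, Ppp1r3a at chr6:14755225-14755524 on the - strand and Pygb at chr2:150786546-150786845 on the + strand.
Pygm: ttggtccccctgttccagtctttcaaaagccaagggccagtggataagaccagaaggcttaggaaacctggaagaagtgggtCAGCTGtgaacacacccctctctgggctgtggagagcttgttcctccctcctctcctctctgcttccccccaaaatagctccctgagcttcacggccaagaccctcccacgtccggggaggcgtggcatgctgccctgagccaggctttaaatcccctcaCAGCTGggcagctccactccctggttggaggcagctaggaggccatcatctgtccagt
Pgam2: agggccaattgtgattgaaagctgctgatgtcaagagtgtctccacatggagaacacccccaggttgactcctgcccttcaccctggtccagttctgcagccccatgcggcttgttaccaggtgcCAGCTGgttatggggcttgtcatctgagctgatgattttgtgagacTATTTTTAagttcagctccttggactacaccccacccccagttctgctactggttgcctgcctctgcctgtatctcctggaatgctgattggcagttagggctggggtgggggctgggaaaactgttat
Ppp1r3a: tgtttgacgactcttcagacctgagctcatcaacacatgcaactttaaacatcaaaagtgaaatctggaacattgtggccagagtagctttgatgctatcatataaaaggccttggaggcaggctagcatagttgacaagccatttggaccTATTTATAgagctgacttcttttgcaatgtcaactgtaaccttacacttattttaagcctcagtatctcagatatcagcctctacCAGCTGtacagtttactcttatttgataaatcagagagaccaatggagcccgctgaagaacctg
Pygb: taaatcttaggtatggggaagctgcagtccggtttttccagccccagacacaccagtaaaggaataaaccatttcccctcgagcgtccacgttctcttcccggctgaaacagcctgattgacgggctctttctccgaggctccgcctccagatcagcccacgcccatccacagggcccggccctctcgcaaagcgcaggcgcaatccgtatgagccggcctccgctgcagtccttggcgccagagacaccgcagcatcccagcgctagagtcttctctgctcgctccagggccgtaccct

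CAGCTG stood 2 times in the Pygm window, at -168 and -8 from the start, and 1 time each in those of Pgam2 and Ppp1r3a. It stood in 16.3% of 32851 promoters of the same length and in 25.9% of the 54 promoters listed for the 38 genes. TATTTNTA stood in the windows of Pgam2 and Ppp1r3a, in 5.99% of all promoters and in 3.70% of those of the set. Of the motifs not capitalised, ACGTG (reverse complement CACGT), the core of hypoxia response elements, was in 19.6% of all promoters, 42.6% of those of the set and 1 of the 3. CATTCC (reverse complement GGAATG), known for TEAD factors, was in 14.7%, 14.8% and 1 of the 3. No motif here contains another, both strands were searched, and the motifs were picked with results and sequences known, so the counts are a description of these letters. The windows also differed in CG dinucleotides, with 4 in Pygm, 1 in Pgam2, 2 in Ppp1r3a and 21 in Pygb, where the median over all promoters was 7 (quartiles 3 and 20).

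At the entry and upper part of glycolysis no gene was called. Hk1, the widely expressed hexokinase, was at 0.10 ± 0.11 (adjusted p = 0.85), and its 3 other unsaturated probes that passed the filter were between 0.09 and 0.14. A brighter Hk1 probe, saturated on 4 arrays in the untreated and 3 in the GDF8 channel, gave 0.03. Pfkl, the liver-type phosphofructokinase, was at 0.26 ± 0.10 (adjusted p = 0.35) with ratios of 0.33, -0.09, 0.17 and 0.64. Pfkp, the platelet type, was at -0.04 ± 0.09, with array values from -0.15 to 0.04. Pfkfb1 and Pfkfb3 are bifunctional enzymes that set the level of an activator of phosphofructokinase. Pfkfb1 was at -0.03 ± 0.11 with array values of both signs. Pfkfb3 was positive on all 4 arrays, at 0.64, 0.29, 0.56 and 0.34, with signals of 11.88 to 12.15 untreated and 12.40 to 12.66 after GDF8. Its mean of 0.46 ± 0.10 did not pass the threshold (limma adjusted p = 0.082).

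In the lower part of glycolysis, Aldoc, the aldolase best known from brain, was positive on all 4 arrays, at 0.56, 0.72, 0.46 and 0.16. Its signals were 10.13 to 10.35 untreated and 10.52 to 10.87 after GDF8, without overlap. The mean was 0.48 ± 0.11 (limma adjusted p = 0.084). A second, dimmer probe of Aldoc gave 0.75, 0.55, 0.64 and 0.52, and it passed at 0.62 when probes were tested separately (limma adjusted p = 0.021). The mean over both probes passed as well, at 0.55 (limma adjusted p = 0.030), so the call for Aldoc depends on the probe.

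Ldhb, the lactate dehydrogenase subunit of heart and other oxidative tissues, was negative on all 4 arrays, at -0.51, -0.55, -0.13 and -0.79. Its mean of -0.50 ± 0.11 did not pass (limma adjusted p = 0.080). Its signals overlapped between the groups, from 13.52 to 14.42 untreated and from 13.01 to 13.87 after GDF8. Among enolases, Eno1, the widely expressed form, was at 0.12 ± 0.10 and Eno2, the neuronal form, at 0.11 ± 0.12, each with arrays on both sides of 0. Pkm was read from an unsaturated probe at 0.07 ± 0.11, with ratios from -0.34 to 0.51, and its 2 brighter probes, saturated on some arrays, gave 0.06 and 0.03. The gluconeogenic bisphosphatases were too dim to test: Fbp1 was well above background on 3 arrays in the GDF8 channel and 1 in the untreated channel, and Fbp2, the muscle form, on none.

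The other phosphorylases, Pygb and Pygl, the brain and liver forms, did not pass the threshold. Pygb was slightly positive on all 4 arrays, at 0.07, 0.06, 0.24 and 0.18, with a mean of 0.14 ± 0.09 (95% interval -0.08 to 0.36, limma adjusted p = 0.68). Its second probe gave 0.20. Pygl, a dim probe, was at 0.15 ± 0.12, with 0.45, -0.42, 0.22 and 0.35.

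On the synthesis side, Gys1, classed here as the muscle glycogen synthase, was negative on all 4 arrays, at -0.34, -0.42, -0.21 and -0.37. Its signals did not overlap, at 12.78, 12.65, 12.65 and 12.93 untreated and 12.44, 12.23, 12.44 and 12.56 after GDF8. The mean of -0.33 ± 0.09 did not pass (limma adjusted p = 0.15). Gbe1, the branching enzyme, Ugp2, which makes UDP-glucose, and Pgm1, which interconverts glucose phosphates, were saturated on some arrays. They gave -0.12 ± 0.12, -0.03 ± 0.10 and -0.04 ± 0.09. On replicate 1 Ugp2 and Pgm1 were both at 0.23, the median of saturated probes there. Saturation thus limits what these means say about the genes. Pgm2, a paralogue of Pgm1 that mainly acts on pentose phosphates, was at 0.30 ± 0.13 (adjusted p = 0.41), with replicate 3 at -0.14 and the other arrays between 0.36 and 0.56.

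Of the genes that control glycogen turnover, subunits of phosphorylase kinase gave no call. Phka1, the muscle form of the regulatory alpha subunit, was at -0.13 ± 0.13, and Phkb, the beta subunit, at -0.08 ± 0.10. The Phkb ratios turned with the dye, at -0.61 on average where GDF8 was in Cy3 and 0.44 where it was in Cy5. Its 2 other probes gave 0.03 and -0.06. Phkg2, the catalytic subunit of liver and testis, was at 0.02 ± 0.09 in its main probe and at 0.40 in another (limma adjusted p = 0.11 with every probe on its own). Phkg1, the catalytic subunit of muscle, was well above background on 1 array in the GDF8 channel and 2 in the untreated channel and was not tested. Ppp1r3c, a glycogen-targeting phosphatase subunit found in many tissues, was at -0.53 ± 0.19 (adjusted p = 0.29). Its arrays spread widely, at -0.25, 0.06, -0.87 and -1.07. Over all 18 unsaturated genes that were not called, ratios lay between -0.53 and 0.48 and adjusted p-values between 0.080 and 0.97.

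Muscle isoforms were set against isoforms classed as widely expressed, by class and by pair. That class holds every non-muscle partner in the set, also forms named above for brain, neurons, liver or heart. Its name is therefore loose, and the contrast is between muscle isoforms and other isoforms. The muscle class is loose as well, since its genes, such as Gys1, need not be particular to muscle. Of 12 muscle isoforms in the set, 5 had a probe never saturated: Pgam2, Pygm and Ppp1r3a were lower, and Gys1 and Phka1 were negative without passing the threshold. Their median was -0.90, and on replicates 1 to 4 it was -0.73, -1.10, -0.60 and -0.61. Of 13 widely expressed isoforms, 11 had such a probe, and 0 of them passed in either direction (beside 2.67% lower and 1.05% higher of all features never saturated). Their median was 0.11, and on the arrays 0.08, 0.04, 0.17 and 0.0045. The remaining 5 unsaturated genes, with no isoform contrast, had a median of 0.07 and 0 calls. No test was made between the classes. Without replicate 2, 0 muscle isoforms were called.

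Of 14 pairs of a muscle and a widely expressed isoform, 4 could be compared on both sides. The muscle isoform was saturated in 7 pairs (those of Hk2, Pfkm, Aldoa, Eno3 and Ldha), and was not well above background in 2 (Fbp2 and Phkg1). The fall of Pgam2 could not be set against Pgam1, which was saturated. Differences within each array, muscle minus wide, were tested by an exact two-sided sign-flip permutation over the 4 arrays, whose smallest possible p is 0.13 when rounded, and adjusted over the 4 pairs.

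Pygm minus Pygb was -1.28, -1.17, -0.84 and -1.64 on replicates 1 to 4, with a mean of -1.23 ± 0.33 (SD, n = 4, exact permutation p = 0.13, adjusted 0.17). Pygm minus Pygl was -1.65, -0.69, -0.81 and -1.82, with a mean of -1.24 ± 0.57 (SD, n = 4, exact permutation p = 0.13, adjusted 0.17). Both differences were negative on 4 of 4 arrays and share the Pygm values, and the design cannot take them past 0.05. In both, replicates 1 and 4, with GDF8 in Cy3, were further below 0 than replicates 2 and 3. The pair test had no dye term, so the SD of a pair includes any dye effect. Ppp1r3a minus Ppp1r3c was -0.49, -1.34, -0.11 and 0.45, with a mean of -0.37 ± 0.75 (SD, n = 4, exact permutation p = 0.375, adjusted 0.375). The spread between arrays was larger than that difference. Phka1 minus Phka2, the regulatory alpha subunit of liver, was 0.79, 0.06, 0.04 and 0.12, with a mean of 0.25 ± 0.36 (SD, n = 4, exact permutation p = 0.13, adjusted 0.17). Here replicate 1 stood far from the other 3, and without it a fit with the dye term gave a difference of 0.09.

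**Figure D4:**
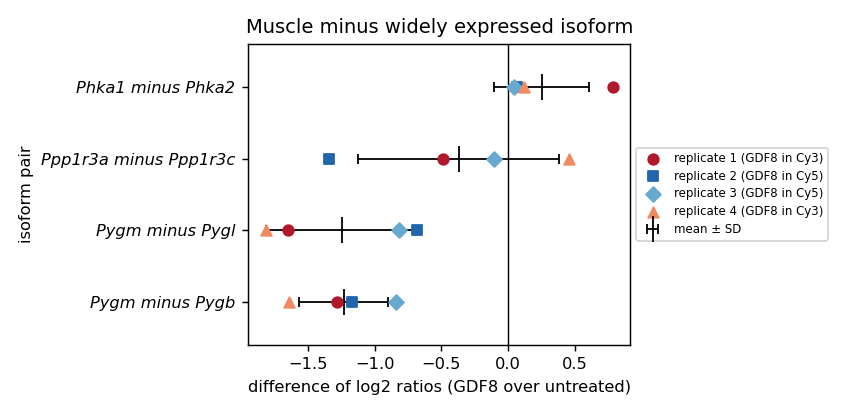
Difference of log2 ratios (GDF8 over untreated), muscle minus widely expressed isoform (x axis), for the 4 pairs measured without saturation (y axis), with 1 marker for each array and a black tick and bar for the mean ± SD. All markers of both Pygm pairs lie below 0, from -1.82 to -0.69, and those of the Ppp1r3a pair lie on both sides.

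Neighbouring genes of the same pathways were read from 4 lists. A probe never saturated stood for 14 of the 19 tested other glycogen genes and 12 of 16 other glycolysis and gluconeogenesis genes. It stood for 11 of 17 pyruvate and lactate genes and 5 of 8 pentose phosphate genes. Counts and medians of these lists include the saturated rest, whose ratios are limited as described. Among 19 tested of 24 other glycogen genes, 3 were lower and 0 higher, beside 2.38% and 0.923% of all features, and the list's median was 0.01. Prkaa2, a catalytic alpha subunit of AMP-activated kinase, was at -0.54, -0.80, -0.93 and -0.48, with a mean of -0.69 ± 0.09 (limma adjusted p = 0.016). Prkag3, the gamma subunit of that kinase in fast muscle, was at -0.64, -0.58, -0.33 and -1.0, with a mean of -0.64 ± 0.11 (limma adjusted p = 0.030). Pgm5 is related to the phosphoglucomutases in sequence but is known as a protein of muscle attachment sites and not as a mutase. It was at -1.26, -0.88, -0.36 and -1.39, with a mean of -0.97 ± 0.11 (limma adjusted p = 0.013). The next genes, Phka2 at -0.38 (adjusted p = 0.12) and Nhlrc1, a ubiquitin ligase that restrains glycogen, at -0.40 (adjusted p = 0.13), did not pass. Without replicate 2 none of these genes was called.

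Among 16 tested of 24 other genes of glycolysis and gluconeogenesis, 1 was lower and 0 were higher, with a median of -0.02. As for the lists that follow, a count of 1 or 0 in so few genes stands beside 2.38% lower and 0.923% higher of all features, and is not read as a property of the list. This was Gpd1, the cytosolic glycerol phosphate dehydrogenase, which branches off glycolysis and passes reducing equivalents to mitochondria. Its ratios were close to each other, at -0.70, -0.76, -0.63 and -0.80, with a mean of -0.72 ± 0.09 (limma adjusted p = 0.014). Next came Pck2, the mitochondrial carboxykinase, at 0.29 (adjusted p = 0.32) and Hkdc1, a hexokinase-like gene, at -0.27 (adjusted p = 0.34). Among 17 tested of 19 genes of pyruvate and lactate handling, 1 was lower and 0 were higher, with a median of -0.05. This was Gpt, alanine aminotransferase, at -0.58, -0.45, -0.52 and -0.88, with a mean of -0.61 ± 0.10 (limma adjusted p = 0.027). Pdp1, the phosphatase that activates pyruvate dehydrogenase, was at -0.46 (adjusted p = 0.069) and Dlat, a subunit of that complex, at -0.35 (adjusted p = 0.19). All 8 genes of the pentose phosphate branch were tested and 0 were called, with a median of 0.08, led by G6pdx at 0.22 (adjusted p = 0.60) and Pgls at 0.13 (adjusted p = 0.70). Neither Gpd1 nor Gpt was called without replicate 2.

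**Figure D5:**
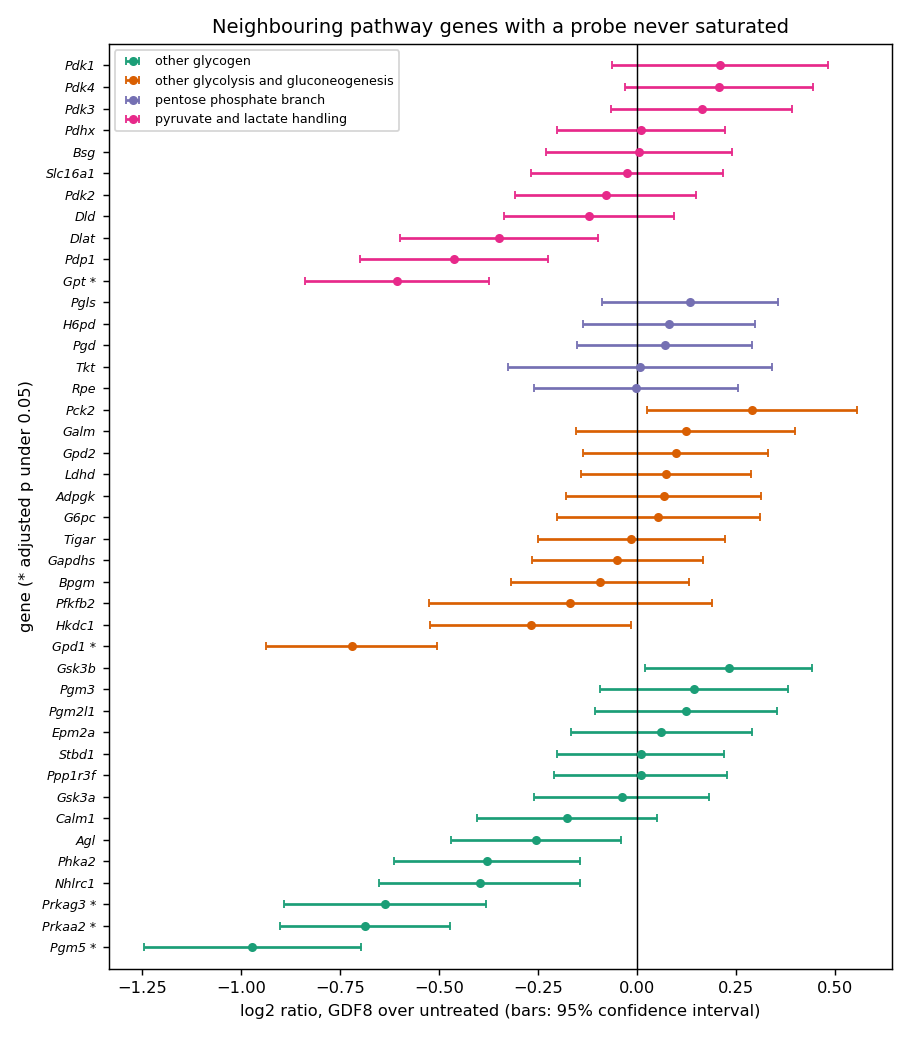
Log2 ratio of GDF8 over untreated RNA with its 95% confidence interval (x axis) for the genes of the 4 neighbouring lists whose probe was never saturated (y axis), coloured by list; an asterisk marks an adjusted p under 0.05. The 5 marked genes, Pgm5, Prkaa2, Prkag3, Gpd1 and Gpt, lie between -0.97 and -0.61.

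Of the 11 muscle markers 1 was lower and 0 were higher, beside 2.38% lower and 0.923% higher of all features. The list median was -0.0032, and 8 were saturated as described. Ckm, the muscle creatine kinase, was 1 of the 2 muscle markers with a probe never saturated. It was lower at -1.10, -1.41, -0.30 and -0.89, with a mean of -0.93 ± 0.18 (limma adjusted p = 0.048). As with Pgam2, Pygm and Pgm5, its ratio on replicate 3 was the nearest to 0. The other marker with such a probe, Myf5, a myogenic factor of early myoblasts, was at 0.03 ± 0.13 (limma adjusted p = 0.97), at -0.09, -0.19, 0.54 and -0.14. Summed intensities of the 11 muscle markers, most of them saturated, were 522654 to 639855 after GDF8 and 511897 to 650686 untreated. Of 8 markers of proliferating cells 6 were higher and 0 lower, beside 0.923% higher and 2.38% lower of all features. The list median was 0.77, with Ccnb1 at 0.95 and Mki67 at 0.80. Summed intensities of these 8 markers, from the brightest probe of each gene, were 155267 to 188163 after GDF8 and 118668 to 145018 untreated. The probes of Birc5 and Mki67 in these sums were saturated on some arrays. For Mki67 it was not the probe that gave the ratio above. The part of either marker list in the falls of Pgam2, Pygm and Ppp1r3a was not tested. Without replicate 2 none of these markers was called.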

How the data were processed

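Gene expression was measured on 4 two-colour Agilent arrays (design 014868), each with 1 GDF8 and 1 untreated RNA. Per the file headers, the deposited scanner files hold spot intensity and log10 ratios (red to green) from Agilent Feature Extraction 9.1.1.1, with other columns of flags. Per the series' design text, the authors used GeneSpring GX 12, filters on flags, and an unpaired t-type comparison at 0.05 with a 1.6-fold cutoff. A further table deposited by the authors gives log2 ratios, equal in 100% of 40929 probes with 1 spot to the processed ratio turned to GDF8 over untreated (tolerance 0.001), and not centred (medians 0.14, -0.09, -0.11 and 0.09). It had 0 columns without a sample. The genome build behind the probes is not given in the sources used here.

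Mean signals were corrected by normexp (offset 50) and normalised by loess within each array, with controls at weight 0 (limma 3.58.1, R 4.3.3). Outlier spots were left out. A probe entered if well above background on all 4 arrays of an RNA and with a value on all arrays (26577 probes). The brightest probe never saturated stood for a gene, otherwise the brightest. Ratios were fitted with terms for GDF8 and dye, with Benjamini-Hochberg adjustment, and the fit was tested on simulated data. Names came from RefSeq for GRCm38.p6, by accession for 24375 probes, symbol 6301 and synonym 2426, and from the files for 8072. Saturation reached 9.20% to 12.1% of spots in red and 0.74% to 5.49% in green, and the number of arrays limits the precision. No fold is given for a gene saturated on all arrays of an RNA, since the other RNA was saturated there on at least 2 arrays.

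All listed genes are named. Of the neighbouring lists those past the threshold are named, with up to 2 more per list by smallest p, and markers within the counts of their list. Members, lists, isoform pairs and tests were chosen with earlier results of these data known. Alternatives covered background, normalisation, filter, dye term, probe choice, the deposited table, the methods' t-test and each array left out.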

Additional observations from a re-analysis of the deposited data

Results flagged for a closer look

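Phka1 minus Phka2 was 0.79 on replicate 1, where the other arrays lay between 0.04 and 0.12. The gap to the nearest array was 0.903 of the whole range, above Dixon's 95% critical value for 4 samples. It was the only such array among 28 results searched. Chance alone flags about 1 in 20 results, so 1 flag among 28 is not more than chance gives.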

How the results depend on the processing

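Pgam2, Pygm and Ppp1r3a kept their direction under every alternative that gave a ratio and were all called under all but 3. Without replicate 2, 0 genes of the set and 0 features were called. The methods' t-test after Benjamini-Hochberg called 0 of the set and 92 lower and 30 higher features. The brightest probe without replicate 2, an alternative chosen after seeing the data, called 2 of the set (Pgam2 and Pygm, with Ppp1r3a at an adjusted p of 0.051) and 107 lower and 12 higher features. Leaving out an array gave 0 to 3 genes of the set lower, 0 to 358 features lower and 0 to 117 higher. Ratios then ran from -1.37 to -0.99 for Pgam2, -1.22 to -0.97 for Pygm and -0.97 to -0.82 for Ppp1r3a, and over the other alternatives from -1.20 to -1.17, -1.12 to -1.05 and -1.17 to -0.76. Aldoc was the 1 gene higher with the mean over probes and with every probe on its own (1 in each). Against 161 higher features, 86 were higher in the authors' deposited log2 table, 91 with no dye term, 66 with a fold over 1.6 and 73 by the methods' t-test at p under 0.05 and a fold over 1.6, which called the 3 genes lower and 291 features. Ratios near 0 that were not called changed sign as arrays were left out: Hk1 (-0.014 to 0.21), Pfkfb1 (-0.14 to 0.071), Eno2 (-0.0028 to 0.21), Pkm (-0.026 to 0.16), Pygl (-0.010 to 0.31), Gbe1 (-0.24 to 0.0011), Ugp2 (-0.10 to 0.036), Phka1 (-0.27 to 0.018), Phkb (-0.17 to 0.0016) and Phkg2 (-0.023 to 0.060). Pfkfb1 also changed sign by median centring (0.020) and Ugp2 with the mean over probes (0.045). The causes were not tested. The pairing of the GDF8 and untreated RNA on an array was used, since each ratio lies within an array. No further pairing was possible because the arrays form 1 group. Saturation leaves 11 genes without a fold.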
